A study of Mus musculus with 8 samples.

Results

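The genes described here encode 9 cation channels that respond, or have been proposed to respond, to stretch of the cell membrane. They were taken from the deposited table of 55679 genes by their symbols, Piezo1, Piezo2, Trpv2, Trpv4, Trpc1, Trpc6, Trpm4, Trpm7 and Pkd2, and each of the 9 symbols matched a single gene. Expression was measured by RNA-seq of poly(A)-enriched RNA from left ventricles of male wild-type C57BL/6J mice, with 4 control libraries from mice infused with saline and 4 libraries from mice infused with angiotensin II (ANG II, a peptide hormone that raises blood pressure). Both infusions ran for 7 days through osmotic mini-pumps under the skin, ANG II was given at 1500 ng/kg/min, and hearts were flushed with saline before the ventricle was removed. The ages of the mice were not given in the sources used here, and the model adds a hormone and a pressure load together, so their effects cannot be told apart.

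Piezo channels are large trimers that open directly when the membrane is stretched and let calcium and other cations into the cell. TRP channels are tetramers of several subfamilies, named canonical (Trpc), vanilloid (Trpv), melastatin (Trpm) and polycystin (Pkd), many of which integrate mechanical, chemical and receptor signals, and for several of them direct gating by force is debated. In the heart these channels are studied in cardiomyocytes, fibroblasts, vascular cells and macrophages, where the calcium they admit can reach calcineurin and NFAT, and where stretch also reaches the transcriptional regulators YAP and TAZ.

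In the deposited values Piezo2, Trpv2, Pkd2, Piezo1 and Trpv4 were called higher in ANG II, and no channel gene was called lower. After median of ratios or quantile scaling of the libraries, Piezo2, Trpv2 and Pkd2 were still called. Calls required a Benjamini-Hochberg adjusted p-value under 0.05, from limma on log2(FPKM + 1) across the 19364 genes with enough signal, together with an absolute log2 fold change above 0.5. FPKM counts fragments relative to transcript length and to library depth. By this rule 5 of 9 channel genes were called, against 15.4% of all genes tested, 14.0% called higher and 1.41% called lower. The control and ANG II values did not overlap for 7 of 9 channel genes, all of them higher in ANG II, against 33.7% of all genes in either direction and 28.7% higher. Trpc6, 1 of the 7, passed the filter of a mean of 0.1 FPKM only through its ANG II values. Each of the other 6 had p = 0.0286 in an exact permutation test, two-sided, with n = 4 per group. The median log2 fold change was 0.57 over the 9 channel genes and 0.15 over all genes tested. Because the tissue was sequenced in bulk, fewer or more cells of a type and less or more RNA per cell cannot be told apart for any of these values.

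**Figure D1:**
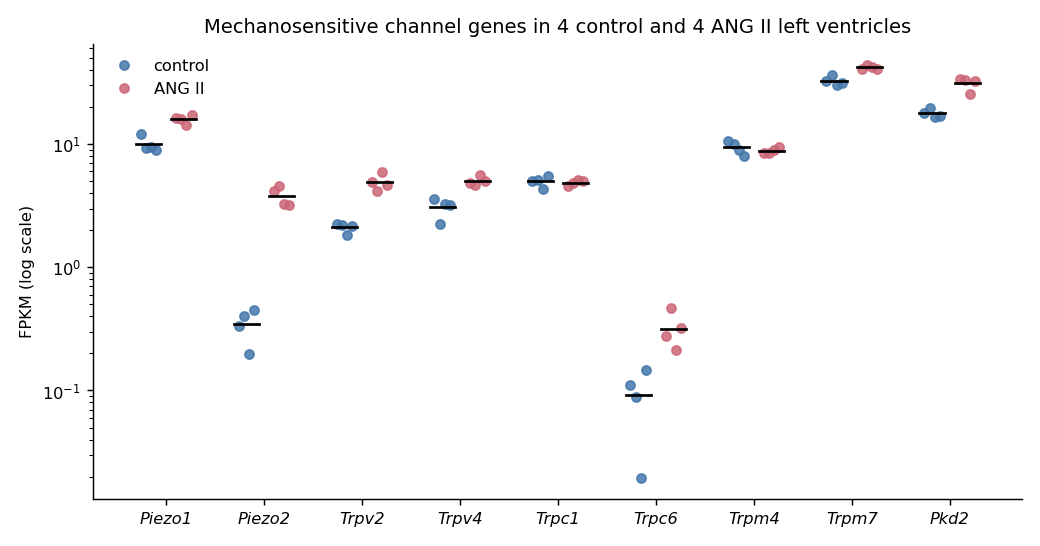
FPKM on a log axis for the 9 channel genes in each of the 4 control (blue) and 4 ANG II (red) libraries, with a black line at each group mean. Piezo2 rose from a mean of 0.346 to 3.81 FPKM, whereas the points of Trpc1 and Trpm4 overlapped between the groups.

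The libraries held 14455654 to 16564828 fragments each, as read from the steps of the low FPKM values. Mitochondrially encoded genes took 26.3% to 26.9% of the fragments in control and 19.2% to 21.8% in ANG II. One protocol text in the labels names CRC cells as the source of the RNA, in conflict with the tissue label. The ventricle label was checked against 8 cardiomyocyte markers, whose summed level ranged from 47364 to 48303 FPKM in control and from 35506 to 38203 FPKM in ANG II, with 2 of 8 called lower and none at 0. Calls in the marker lists stand beside 14.0% of all genes called higher and 1.41% called lower. Of markers of other cells, 8 of 8 macrophage, 7 of 8 fibroblast, 8 of 8 activated fibroblast and 5 of 5 erythroid genes were called higher. So were 1 of 8 endothelial, 2 of 6 lymphatic endothelial, 2 of 8 mural and 1 of 6 Schwann cell genes. Of the tested genes, 2 of 3 skeletal muscle and 1 of 3 atrial genes were called higher, while 1 mural gene was called lower. The endothelial (0.137), mural (0.141) and Schwann cell (0.063) median log2 fold changes lay below the 0.147 of all genes. The skeletal muscle calls were outside the myosins of that list. Of these, Myh1 and Myh2 reached at most 0.0425 and 0.101 FPKM in any library, and the defining marker Myh4 was at 0 in all 8 libraries. Atrial markers summed to 1.15 to 48.8 FPKM in control and 52.5 to 230 FPKM in ANG II. The smooth muscle marker Tagln was listed at 0 to 0.389 FPKM, and 67.9% of its exon length lies under genes of the opposite strand.

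The median gene lay 0.15 log2 units higher in ANG II than in control in the deposited values, and scaling by the median of ratios moved this median to 0.0040. The calls split into 2708 higher and 273 lower as deposited, and into 1670 higher and 804 lower after that scaling. Under it Piezo2 (1.71), Trpv2 (0.75) and Pkd2 (0.55) stayed called on the log2 scale, in a background of 12.8% of genes called. Piezo1 (0.43) and Trpv4 (0.39) kept adjusted p-values under 0.05 in limma but fell under the fold change threshold, so their calls depend on the scaling. After quantile scaling Trpv4 (0.25) missed the p-value threshold as well, with a limma adjusted p of 0.155. Quantile scaling called Piezo2, Trpv2 and Pkd2 among 12.4% of all genes, and voom on the recovered fragments called them with Piezo1, Trpv4 and Trpc6 among 21.0%.

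**Figure D2:**
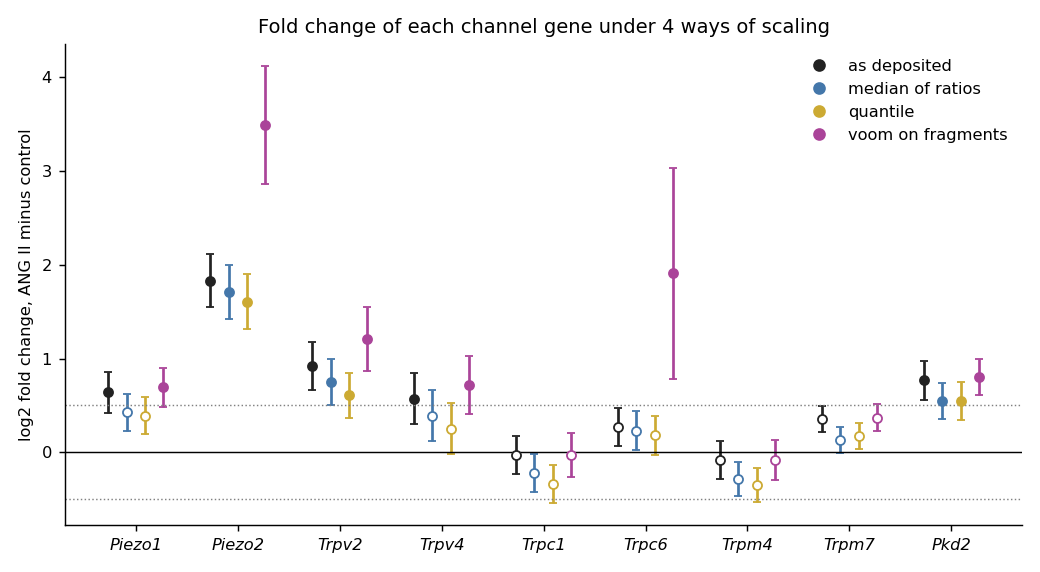
Log2 fold change, ANG II minus control, with 95% confidence intervals from limma for each channel gene, as deposited, after median of ratios or quantile scaling, and by voom on recovered fragments. Filled points passed the call rule, dotted lines mark the 0.5 threshold, and Piezo2, Trpv2 and Pkd2 were called under all 4.

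Windows of 250 bases before the start were taken from the RefSeq table of gene starts (build GRCm38.p6). Those of the called channels are shown so that the regions of genes that rose together can be set side by side. The windows searched left out the chromosome that holds Piezo2, so its start was not looked up. Of the 9 genes, 7 had a window, and Trpm4 and Piezo2 did not. For Piezo2 this does not mean that the RefSeq table lacks an entry. Trpv2 has 3 listed starts, of which the first is shown. Each sequence is written 5′ to 3′ on the strand of its gene. Capitals mark every match, on either strand, to 1 of 7 short motifs. These were the GC box with the letters GGGCGG, the motif of the TEAD partners of YAP with GGAATG, the TATA box with TATAAA, the AP-1 site with TGACTCA, the core of NFAT sites with GGAAAA, the SMAD motif with CAGACA, and the SRF CArG box.
Piezo1 (chr8:122551330-122551579, minus strand): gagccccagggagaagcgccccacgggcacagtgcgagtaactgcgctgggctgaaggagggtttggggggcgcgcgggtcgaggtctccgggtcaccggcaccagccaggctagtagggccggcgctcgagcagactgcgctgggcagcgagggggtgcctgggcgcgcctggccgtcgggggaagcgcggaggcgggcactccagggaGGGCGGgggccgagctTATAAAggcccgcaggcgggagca
Trpv4 (chr5:114658422-114658671, minus strand): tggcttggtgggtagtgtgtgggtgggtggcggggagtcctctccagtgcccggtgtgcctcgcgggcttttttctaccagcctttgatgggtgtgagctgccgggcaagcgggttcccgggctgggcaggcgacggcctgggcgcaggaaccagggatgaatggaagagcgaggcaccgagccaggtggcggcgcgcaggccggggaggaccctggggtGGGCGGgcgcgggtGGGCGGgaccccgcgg
Pkd2 (chr5:104459207-104459456, plus strand): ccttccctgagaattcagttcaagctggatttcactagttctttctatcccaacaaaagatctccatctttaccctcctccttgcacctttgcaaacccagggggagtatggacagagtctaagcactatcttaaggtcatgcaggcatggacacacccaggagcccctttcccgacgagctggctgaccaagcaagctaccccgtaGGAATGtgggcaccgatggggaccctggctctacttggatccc
Trpv2 (chr11:62574236-62574485, plus strand): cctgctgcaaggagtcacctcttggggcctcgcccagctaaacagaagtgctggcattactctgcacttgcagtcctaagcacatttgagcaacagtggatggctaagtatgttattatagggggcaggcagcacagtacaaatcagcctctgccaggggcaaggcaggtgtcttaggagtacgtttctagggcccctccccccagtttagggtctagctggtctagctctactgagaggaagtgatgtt
The Piezo1 window held 1 GC box 40 bases and 1 TATA box 24 bases before the start, and no searched motifs overlapped. The Trpv4 window held 2 GC boxes, at 30 and 16 bases before the start, and the Pkd2 window held 1 TEAD motif at 43 bases. The first Trpv2 window held none of the 7 motifs, and the window of the third listed Trpv2 start, not shown, held 1 TEAD motif 188 bases before that start. No searched motif was common to the 4 windows shown. Among 32851 windows of the same length, 32.7% held a GC box, 12.6% a TEAD motif, 12.4% a TATA box, 4.46% an AP-1 site, 20.4% an NFAT core and 17.1% a SMAD motif, so these matches are frequent by themselves. GC content was 74.0% for Piezo1, 72.0% for Trpv4, 53.2% for Trpv2 and 52.8% for Pkd2. The median over the windows searched was 52.4%. Among the uncalled channels, the Trpc1 window held 3 GC boxes and the Trpm7 window a SMAD motif. The Trpc6 window held a SMAD motif and an SRF CArG box 122 bases before the start. The CArG box was found in 1.47% of windows, and it is 1 hit among 7 motifs searched in every window. These matches describe letters and say nothing of binding in these hearts.

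Piezo2 had the largest log2 fold change of the 9 genes. Piezo2 (ENSMUSG00000041482, chr18:63010213-63387183, GRCm38) encodes the channel best known for touch and for position sense in sensory neurons. Its level was 0.334, 0.400, 0.199 and 0.449 FPKM in control libraries 1 to 4, and 4.19, 4.56, 3.28 and 3.20 FPKM in ANG II libraries 1 to 4. The highest control library lay far below the lowest ANG II library, so the groups did not overlap. These levels rested on 13 to 27 fragments per control library and 195 to 286 per ANG II library. The ratio of mean FPKM was 11.0, and the ratio of summed fragments per library depth was 11.1 (95% exact interval 8.87 to 14.1, counting error only). On the log2(FPKM + 1) scale, which understates changes at low levels, the fold change was 1.83 (SE 0.127, limma adjusted p = 1.16e-05), which ranked 139 from the highest among 19364 genes. With voom on the recovered fragments it was 3.49.

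Piezo1 (ENSMUSG00000014444, chr8:122481698-122551329) encodes the stretch-gated channel of endothelium and red blood cells, also described in cardiomyocytes and fibroblasts. Its level was 12.2, 9.27, 9.49 and 9.003 FPKM in control and 16.4, 15.9, 14.4 and 17.3 FPKM in ANG II. Control library 1 stood above the other 3 controls yet below every ANG II library. The log2 fold change was 0.64 (SE 0.0986, limma adjusted p = 9.26e-04), a ratio of means of 1.61, and it ranged from 0.60 to 0.73 when each library was left out in turn. Of the Piezo1 exon length, 24.6% lies under Ctu2, a gene read from the other strand. Whether counting used strand was not given in the sources used here, so fragments in that stretch cannot be told apart. Ctu2 itself held 59 to 107 fragments per library, against 471 to 964 for Piezo1.

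The balance between the Piezo genes shifted. Piezo1 exceeded Piezo2 by 20.1 to 47.6 times in control and by 3.50 to 5.43 times in ANG II. The log2 ratio was 2.82 lower in ANG II than in control (control 4.90 ± 0.576, ANG II 2.09 ± 0.270, mean ± SD of 4 libraries each). An exact permutation test, two-sided, gave p = 0.0286, which is the lowest value possible with 4 against 4. Because both values come from the same library, this ratio is the same whatever factor a library is scaled by.

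Activated fibroblast markers moved with Piezo2. All 8 of these markers were called higher, beside 14.0% of all genes. Their summed level was 72.9, 83.4, 47.5 and 98.2 FPKM in control and 1205, 1281, 742 and 1012 FPKM in ANG II. The library with the lowest sum among the controls, library 3, also had the lowest Piezo2, and the highest of both fell in control library 4, whereas in ANG II the lowest sum was in library 3 and the lowest Piezo2 in library 4. Schwann cell markers, which would accompany nerve, had summed levels of 6.21 to 11.4 FPKM in control and 10.9 to 12.6 FPKM in ANG II. Of these, 1 of 6 was called, near the 15.4% of all genes. Erythroid markers, of a lineage that uses Piezo1, summed to 96.8 to 487 FPKM in control and 581 to 2083 FPKM in ANG II, and control library 1 was the highest control for both Piezo1 and this sum. The cardiomyocyte, endothelial, macrophage, Schwann cell and atrial sums were also highest in control library 1, so this match was not particular to erythroid markers. In ANG II, library 4 had the highest Piezo1 and the lowest erythroid, cardiomyocyte, endothelial and atrial sums. The part of these cell types in the Piezo values was not tested.

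Trpv2 and Trpv4 are vanilloid TRP channels. Trpv2 (ENSMUSG00000018507, chr11:62574486-62600515) encodes a calcium-permeable channel studied in cardiomyocytes and macrophages. Its level was 2.27, 2.21, 1.84 and 2.17 FPKM in control and 4.97, 4.17, 5.95 and 4.66 FPKM in ANG II. The lowest ANG II library lay well above the highest control. On the log2 scale the fold change was 0.92 (SE 0.113, limma adjusted p = 2.57e-04), with a ratio of means of 2.33. It was called in all 17 alternative fits at the same thresholds, between 0.61 and 1.21. Macrophage markers summed to 262 to 333 FPKM in control and to 728, 589, 821 and 604 FPKM in ANG II libraries 1 to 4. The ANG II libraries fell in the same order by that sum and by Trpv2, from library 3 as the highest through 1 and 4 to 2. In control the orders differed, with Trpv2 lowest and the macrophage sum second highest (281 FPKM) in library 3. The order was not particular to macrophages. Fibroblast markers summed to 2140, 1872, 2169 and 2139 FPKM in ANG II libraries 1 to 4, the same order as Trpv2. Their sum was also lowest in control library 3 (1052 FPKM), though the other controls were ordered differently. The part of macrophages or fibroblasts in the Trpv2 level was not tested.

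Trpv4 (ENSMUSG00000014158, chr5:114622152-114658421) encodes a channel sensitive to cell swelling, warmth and shear, studied in vascular cells and fibroblasts. Its level was 3.61, 2.26, 3.28 and 3.18 FPKM in control and 4.88, 4.69, 5.58 and 5.01 FPKM in ANG II. Control library 2 was the lowest, and the groups did not overlap. Its log2 fold change came to 0.57 (SE 0.120, limma adjusted p = 0.00502). Without control library 2 it was 0.47 with an adjusted p of 0.00679 in limma, below the fold change threshold. The Trpv2 to Trpv4 ratio ranged from 0.560 to 0.978 in control and from 0.889 to 1.07 in ANG II, with overlap (log2 difference 0.48, exact permutation test, two-sided, p = 0.0857, n = 4 each).

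Pkd2 (ENSMUSG00000034462, chr5:104459450-104505819) encodes polycystin-2, a TRP-related channel of the endoplasmic reticulum and primary cilium that pairs with polycystin-1, the product of Pkd1. Its level was 17.8, 19.7, 16.7 and 17.1 FPKM in control and 33.6, 33.01, 25.6 and 32.3 FPKM in ANG II. ANG II library 3 was the lowest of its group and still above every control. The log2 fold change was 0.77 (SE 0.0918, limma adjusted p = 2.27e-04), with a ratio of means of 1.75, and it was called in all 17 alternative fits at the same thresholds. Pkd1 was also called higher, from 30.7 ± 3.21 to 50.8 ± 6.27 FPKM (SD, n = 4 each; log2 fold change 0.71, limma adjusted p = 5.52e-04). The ratio of Pkd2 to Pkd1 within a library stayed between 0.559 and 0.633 across all 8 libraries, with group means of 0.582 and 0.613 that did not separate (exact permutation test, two-sided, p = 0.0857, n = 4 each).

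**Figure D3:**
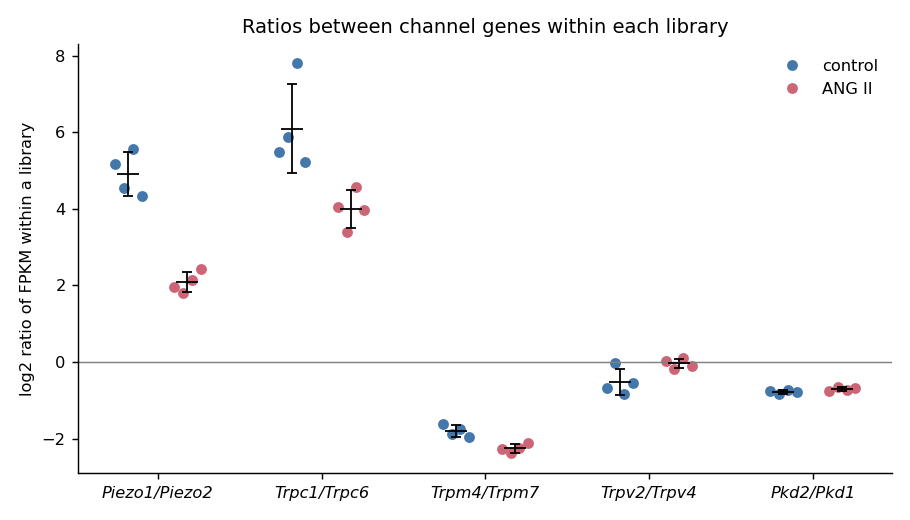
Log2 ratio of FPKM between pairs of channel genes within each control (blue) and ANG II (red) library, with black bars for the mean ± SD of each group. The Piezo1 to Piezo2 ratio fell from 20.1 to 47.6 times in control to 3.50 to 5.43 times in ANG II, while the Pkd2 to Pkd1 ratio ranged from 0.559 to 0.633 over all libraries.

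The canonical channels Trpc1 and Trpc6 are opened downstream of receptors that activate phospholipase C, such as the ANG II receptor, and are studied for their coupling to calcineurin and NFAT in hypertrophy. Trpc1 (ENSMUSG00000032839, chr9:95705082-95750375) stood at 5.002, 5.14, 4.32 and 5.50 FPKM in control and at 4.54, 4.85, 5.09 and 5.005 FPKM in ANG II. The groups overlapped throughout. The log2 fold change was -0.026 with a 95% interval of -0.23 to 0.18 (limma adjusted p = 0.853), and it took either sign when libraries were left out. Relative to the median gene the difference was -0.17. Quantile scaling gave -0.34 with a limma adjusted p of 0.0201 and median of ratios scaling -0.22 with 0.109, so whether Trpc1 passed the p-value threshold depends on the scaling.

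Trpc6 (ENSMUSG00000031997, chr9:8544142-8680741) was the least expressed channel, at 0.111, 0.0880, 0.0194 and 0.147 FPKM in control and 0.275, 0.463, 0.212 and 0.322 FPKM in ANG II. These levels correspond to 5, 4, 1 and 7 fragments in control and 13, 23, 10 and 16 in ANG II. The groups did not overlap, but the counts were small. Summed over libraries, 17 control and 62 ANG II fragments gave a ratio of 3.57 (95% exact interval 2.06 to 6.52, counting error only). On the log2(FPKM + 1) scale the fold change was 0.27 (SE 0.0912, limma adjusted p = 0.0450), under the threshold of 0.5. The control mean of 0.0914 FPKM lay below the filter of 0.1 FPKM, so the gene was tested because of the group in which it was higher, and this p-value is given as a description. With a pseudocount of 0.1 it was 1.14 (adjusted p = 0.0412 in limma) and with voom 1.91 (adjusted p = 0.0115 in limma), and under both it was called, beside 19.7% and 21.0% of all genes. The adjusted p-value was under 0.05 in 5 of 16 alternative fits only, and it was 0.0866 after median of ratios and 0.180 after quantile scaling in limma. Leaving out any 1 library other than ANG II library 3 raised it to between 0.0526 and 0.109 in limma. The Trpc1 to Trpc6 ratio was lower in ANG II by 2.10 log2 units, given without a test because Trpc6 passed the filter through its ANG II values. It rested on 1 to 7 Trpc6 fragments per control library, with 1 in library 3.

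The melastatin channels split. Trpm7 (ENSMUSG00000027365, chr2:126791565-126876230) encodes a channel for magnesium, calcium and zinc fused to a kinase. Its level was 32.9, 36.4, 30.5 and 31.4 FPKM in control and 41.1, 44.2, 42.6 and 41.0 FPKM in ANG II. All ANG II libraries lay above all controls, by a modest margin. Its log2 fold change came to 0.36 (SE 0.0626, limma adjusted p = 0.00187), which passed the p-value threshold, as 33.3% of all genes did, but not the fold change threshold. Relative to the median gene the difference was 0.21, and after median of ratios scaling it was 0.13 with a limma adjusted p of 0.144.

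Trpm4 (ENSMUSG00000038260, chr7:45302632-45333780) encodes a calcium-activated channel that passes sodium and potassium but not calcium. It stood at 10.7, 9.97, 9.02 and 8.07 FPKM in control and 8.50, 8.45, 8.99 and 9.45 FPKM in ANG II, with the ANG II values inside the control range. The log2 fold change was -0.077 with a 95% interval of -0.28 to 0.12 (limma adjusted p = 0.552). Median of ratios scaling gave -0.28 (adjusted p = 0.0265 in limma; 13.1% of genes were lower at that threshold) and quantile scaling -0.35 (adjusted p = 0.00997 in limma; 15.3% of genes), so whether Trpm4 passed the p-value threshold depends on the scaling. The Trpm4 to Trpm7 ratio, which no factor per library changes, fell from 0.288 ± 0.0290 to 0.210 ± 0.0162 (SD over 4 libraries; exact permutation test, two-sided, p = 0.0286).

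Set in order of level, the 9 genes covered a wide range. In control the order of mean FPKM was Trpm7 (32.8), Pkd2 (17.8), Piezo1 (9.98), Trpm4 (9.43), Trpc1 (4.99), Trpv4 (3.09), Trpv2 (2.12), Piezo2 (0.346) and Trpc6 (0.0914), and the ranges of Piezo1 and Trpm4 and of Trpv4 and Trpv2 overlapped. In ANG II the first 4 places were the same, and Trpv4 (5.04), Trpv2 (4.94), Trpc1 (4.87) and Piezo2 (3.81) followed with each range overlapping the next. The order depends on transcript length, since the deposited FPKM values divide by the mean length of a gene's annotated transcripts. With the length of the longest transcript, Pkd2 (14.4 FPKM) came before Trpm7 (11.0 FPKM) in control.

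The summed FPKM of the 9 genes was 80.6 ± 5.23 for the controls and 117 ± 3.76 for ANG II (SD, n = 4 each), a ratio of 1.45. On average Trpm7 made up 40.7% of this sum in control and 36.1% in ANG II, Trpm4 11.7% and 7.56%, and Trpc1 6.20% and 4.16%, each lower in every ANG II library than in any control. Trpv2 made up 2.63% and 4.23% and Piezo2 0.427% and 3.24%, each higher in every ANG II library. The shares of Pkd2 (22.1% and 26.5%), Piezo1 (12.4% and 13.7%), Trpv4 (3.85% and 4.31%) and Trpc6 (0.113% and 0.270%) overlapped between the groups, for Pkd2 through ANG II library 3 at 22.9%. These shares rest on the transcript length used. With the longest transcript, Pkd2 made up 34.8% and 40.4% and Trpm7 26.6% and 22.9% of the sum in control and ANG II, in the reverse order.

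**Figure D4:**
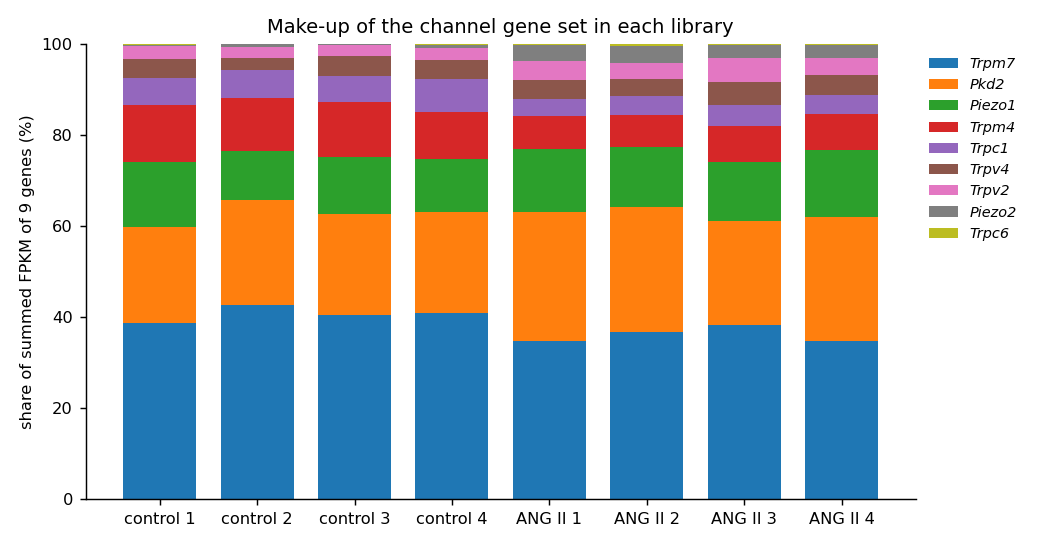
Share of the summed FPKM of the 9 channel genes taken by each gene (%), in each control and ANG II library. Trpm7 and Pkd2 took the largest shares in every library, and the Piezo2 share was 0.427% on average in control and 3.24% in ANG II.

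The rest of the TRP family was largely at low levels. Of 21 other TRP genes, 8 passed the filter of a mean of 0.1 FPKM, 4 were at 0 in all libraries, and 2 of the 8 tested were called, both higher, beside 14.0% of all genes. One of those at 0 is Trpc2, whose exons lie entirely (100%) within Xndc1 and Xntrpc on the same strand, so its 0 cannot be read as absence of its RNA. Trpm2, an oxidant-sensitive channel of immune cells, went from 0.376 ± 0.187 to 1.05 ± 0.0747 FPKM (log2 fold change 0.58), and Mcoln2, a lysosomal channel, from 0.151 ± 0.0772 to 0.728 ± 0.209 FPKM (0.58; SD, n = 4 each). Both were low, at 2 to 51 fragments per library, and their calls depended on the scaling. After median of ratios scaling Trpm2 was at 0.495, uncalled, and the list had 1 gene called higher, Mcoln2, and 1 lower, Pkd2l2 (-0.58). After quantile scaling Trpm2 (0.42) and Mcoln2 (0.45) were both uncalled. Mcoln1, the lysosomal channel with the highest mean of this list, was at 20.0 ± 1.33 and 22.6 ± 1.73 FPKM (limma adjusted p = 0.0977). The list's median log2 fold change was 0.14.

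Partners of these channels were next. Of 20 tested genes whose products bind the channels, regulate them or handle store calcium, 6 were called higher and none lower, with a median of 0.22, beside 14.0% of all genes called higher and 1.41% lower. Mdfic and Mdfi encode MyoD-family inhibitor proteins, which bind Piezo channels as auxiliary subunits. Mdfic rose from 10.3 ± 0.560 to 17.2 ± 0.722 FPKM (log2 fold change 0.68) and Mdfi from 0.834 ± 0.345 to 3.09 ± 0.546 FPKM (1.17). Of the store-operated calcium entry genes, the pore gene Orai2 rose from 0.848 ± 0.195 to 2.75 ± 0.337 FPKM (1.02), and the sensor gene Stim2 from 7.65 ± 0.321 to 11.4 ± 1.05 FPKM (0.51). Calm2, a calmodulin gene, rose from 119 ± 11.9 to 181 ± 17.1 FPKM (0.60; SD, n = 4 each). Reads of Calm2 may be shared, since 9.72% of its 50-base stretches recur in other genes, mostly Gm7308. After median of ratios scaling Mdfic, Stim2, Calm2 and Pkd1 fell under the fold change threshold, and the list had 2 genes called higher and 2 lower, beside 12.8% of all genes called. Atp2a2, the calcium pump of the sarcoplasmic reticulum and the highest gene of the list, stood at 4345 ± 130 and 3109 ± 243 FPKM, a log2 fold change of -0.49 under the threshold (limma adjusted p = 0.00108), and at -0.72 it was called lower after median of ratios scaling. The other lower call there was Tmem150c, a gene linked to mechanosensitive currents, at -0.51 (-0.65 after quantile scaling, where it was also called, and -0.35 as deposited).

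Among 10 other tested mechanosensitive genes, 1 was called, beside 15.4% of all genes. Panx1, which encodes an ATP-releasing channel, rose from 1.14 ± 0.101 to 5.48 ± 1.39 FPKM (SD, n = 4 each; log2 fold change 1.57, limma adjusted p = 1.09e-04). Gja1, the gap junction gene connexin 43 and the highest of this list, was at 245 ± 24.5 and 229 ± 17.0 FPKM (adjusted p = 0.377 in limma). The median log2 fold change of this list was 0.20, beside 0.15 over all genes.

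The last lists held genes that act downstream of these channels. Of 18 calcium signalling genes, 1 was called, beside 15.4% of all genes. It was the NFAT transcription factor gene Nfatc4, which rose from 3.22 ± 0.511 to 6.88 ± 1.41 FPKM (SD, n = 4 each; log2 fold change 0.89, limma adjusted p = 0.00117). Rcan1, a calcineurin inhibitor and NFAT target with the highest mean of the list, spread from 70.8 to 152 FPKM in control and from 118 to 170 FPKM in ANG II (adjusted p = 0.274 in limma). The list's median was 0.10. Of 13 genes of the YAP and TAZ pathway, 3 were called, all higher, beside 14.0% of all genes. They are targets of the pathway, as are others in the list that were not called, among them Ccn1 (0.35, limma adjusted p = 0.213), Amotl2 (0.091, limma adjusted p = 0.593) and Lats2 (0.14, limma adjusted p = 0.160). Ccn1 was called in 1 of 17 alternative fits. Without the fold change threshold 7 of the 13 passed at an adjusted p under 0.05, all higher, beside 33.3% of all genes. Of these, Ajuba (0.49, limma adjusted p = 0.00402), Tead4 (0.43, limma adjusted p = 0.0107), Wwtr1, the gene of TAZ (0.41, limma adjusted p = 3.88e-04), and Amotl1 (0.24, limma adjusted p = 0.0403) were not called. Ccn2, listed under its older symbol Ctgf, rose by 1.96 on the log2 scale, Ankrd1 by 1.53 and Axl by 0.98. Ankrd1, a stretch-responsive cardiac ankyrin repeat gene, had the highest mean, at 582 ± 61.0 and 1685 ± 233 FPKM (SD, n = 4 each). The list's median was 0.35.

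**Figure D5:**
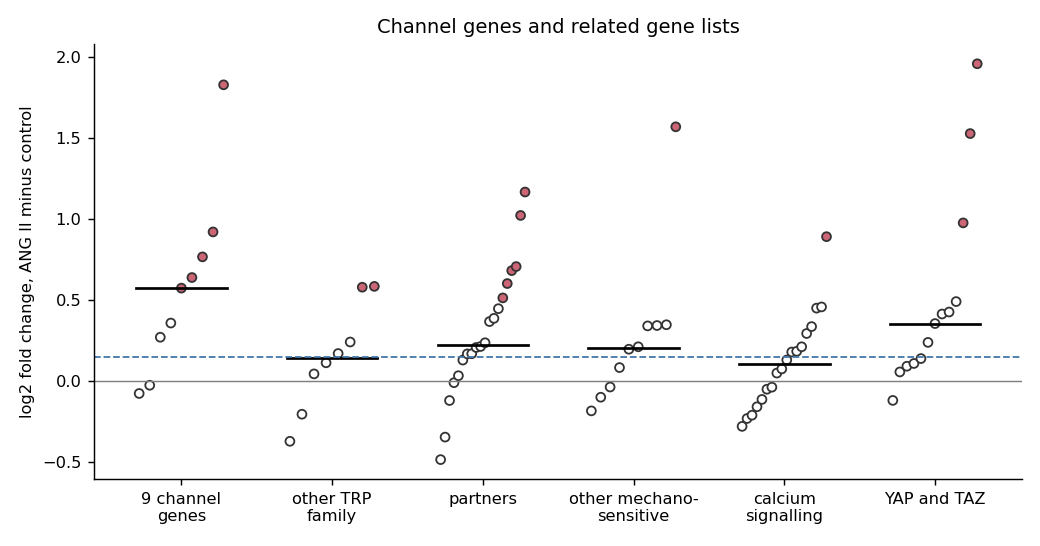
Log2 fold change, ANG II minus control, of each tested gene in the 9 channel genes and 5 related lists, filled where the gene passed the call rule. Black lines mark list medians (0.57 for the channel genes), and the dashed line marks the median of all genes tested, 0.15.

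For the 4 called channels with the largest fold changes, the genes with the most similar pattern over the 8 libraries were sought among 12946 genes whose mean reached 1 FPKM. Piezo2 was closest to Itgb3 (Pearson's r = 0.999), Rtn4 and Gak, and Trpv2 to Sh3bgrl (0.998), Abi1 and C1qc. Pkd2 was closest to Sh3rf3 (0.994), Gnao1 and Pkd1, and Piezo1 to Fam213b (0.995), Pitpnm1 and P2rx4. All points share the difference between the groups, and 1154, 827, 761 and 349 genes had r above 0.95 with Piezo2, Trpv2, Pkd2 and Piezo1, so a high r is common here and is given as a description.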

How the data were processed

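RNA-seq values of 8 left ventricle libraries were analysed, 4 control and 4 ANG II, grouped by their titles and named by group and replicate number. The authors deposited FPKM values, 1 column per library and without pooling. The submitters' processing notes name Bowtie2, HISAT and RSEM. Their versions, the genome build, the annotation and the use of strand were not given in the sources used here. The study describes more replicates per group than the libraries analysed here. Gene positions and lengths were taken from GENCODE M21 (GRCm38), which held 55141 of the 55679 gene IDs. The study names limma and edgeR with thresholds on the adjusted p-value and the log fold change, whose base it does not state. Base 2 was chosen here. The files hold no counts, so no count model was used for the main result.

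Tests used limma 3.58.1 (R 4.3.3), with a linear model and moderated variances that followed a trend in level, on log2(FPKM + 1) of the genes averaging 0.1 FPKM or more. All 8 libraries entered without covariates, and p-values were adjusted by the Benjamini-Hochberg method. The script was tested on simulated data. For single values a permutation test, exact and two-sided, ran over 70 allocations (Python 3.11.15, scipy 1.17.1, numpy 2.4.6, pandas 2.3.3, with matplotlib 3.10.9 for plots), whose smallest p-value is 0.0286. P-values measure the spread between these mice only. Deposited values multiplied by the mean transcript length were whole multiples of a step particular to each library, within 0.1 of a fragment, for 99.3% of values under 60 fragments in genes with 1 transcript and 97.6% in other genes, which gave the fragments per gene. Intervals cover counting error only, since no molecular identifiers were used. No 2 libraries agreed within sampling noise.

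The channel genes and the related and marker lists were chosen with earlier results of these data known. All 9 channel genes are named. Of each related list, the called genes (at most 4, by fold change) and the gene with the highest mean are named. The 2 further called partners beyond 4, Calm2 and Stim2, were named after their values were seen. So were Ctu2, Pkd2l2, Tmem150c, Ccn1, Amotl1, Amotl2, Lats2, Ajuba, Tead4, Wwtr1, Myh1, Myh2, Myh4 and Tagln. For up to 4 called channels, the 3 genes with r closest to 1 over 8 libraries are given. Alternatives changed the pseudocount, the filter, the scaling, the variance trend, the fold change threshold, the replicate block and the libraries included, and voom was run on the recovered fragments. The length of the longest transcript, for levels and shares, was added after seeing the data.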

Additional observations from a re-analysis of the deposited data

Results flagged for a closer look

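Of 30 groups of 4 libraries examined for a single value far from the rest (the 9 channel genes, their sum and the ratios, in each group), 3 stood apart, and chance alone marks about 1 in 20. Piezo1 in control library 1 (12.2 FPKM) lay above the other 3 controls, which reached 9.49 FPKM. Pkd2 in ANG II library 3 (25.6 FPKM) lay below the other 3 ANG II libraries, which began at 32.3 FPKM. That library had the highest atrial sum of its group (230 FPKM, against 52.5 to 126 FPKM). It also had the highest macrophage, fibroblast, lymphatic endothelial and Schwann cell sums and the lowest activated fibroblast and skeletal muscle sums. Whether these bear on its Pkd2 value was not tested. The ratio of Trpc1 to Trpc6 in control library 3 (223) lay above the other controls and rested on 1 Trpc6 fragment. The calls of Piezo1 and Pkd2 held without those libraries, and the Trpc1 to Trpc6 difference without any single library ranged from -2.39 to -1.54 on the log2 scale.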

How the results depend on the processing

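The replicate numbers did not pair the libraries. Correlations of same-numbered deviations from the group means ran from -0.043 to 0.092, and with the replicate block 5 channel genes and 2968 genes in all were called (2981 without it), with no gene named here gaining or losing its call. Under the block Trpc6 had an adjusted p of 0.0816 in limma (0.0450 without it), and the Piezo1 to Piezo2 and Trpm4 to Trpm7 ratios had p = 0.125 in an exact paired permutation test, the smallest that 4 pairs allow. Piezo2, Trpv2 and Pkd2 kept their calls in all 17 alternative fits at the same thresholds. The count of called channel genes was 3 after median of ratios or quantile scaling, beside 12.8% and 12.4% of all genes. It was 1 with an absolute log2 fold change above 1, beside 795 of 19364 genes in all. Leaving out 1 library gave 4 to 5, beside 2722 to 3078 genes in all. Piezo1 had a log2 fold change of 0.43 after median of ratios and 0.39 after quantile scaling. Trpv4 had 0.39 and 0.25 under the same scalings, 0.49 after removal of mitochondrial genes and the 10 most abundant genes, and 0.47 to 0.64 with 1 library left out. Trpc6 reached 1.14 with a pseudocount of 0.1 and 1.91 with voom, its adjusted p was under 0.05 in 5 of 16 alternative fits, and it was not tested under a filter of 1 FPKM. Trpc1 ranged from -0.082 to 0.015 with 1 library left out. The ratio of summed FPKM was 1.24 (median of ratios), 1.22 (quantile) and 1.31 (without mitochondrial and the most abundant genes). Genes called in all were 795 above a log2 fold change of 1 and 6447 with no such threshold. Counts without a threshold were 7 of 13 for YAP and TAZ, 7 of 18 for calcium signalling, 4 of 10 for other mechanosensitive genes and 13 of 20 for partners, beside 33.3% of all genes, and above 1 they were 0 for calcium signalling, 0 for other TRP genes and 2 for partners. With a pseudocount of 0.1 (19.7% of all genes called) and with voom (21.0%), the YAP and TAZ list had 5 calls of 13 in each and the calcium list 3 of 18 in each. The calcium list had 2 after quantile scaling, and 1 to 2 with 1 library left out. With 1 library left out the YAP and TAZ list had 3 to 4. Other TRP genes had 0 calls under a filter of 1 FPKM and 1, Pkd2l2 as lower, after quantile scaling. The cause of these shifts was not tested, except that a stricter threshold or filter leaves fewer genes by construction. With 14455654 to 16564828 fragments per library, Trpc6 and Piezo2 in control rested on at most 27 fragments, and smaller differences in them could not be resolved.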
